A study of Mus musculus with 5 samples.

Results

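The naive pluripotency network is represented here by 10 transcription factor genes of mouse embryonic stem (ES) cells, chosen by name: KLF2, KLF4, KLF5, ESRRB, NR0B1, NR5A2, TFCP2L1, TBX3, STAT3 and ZFP42 as the count tables spell them. They are 10 of the 1682 genes targeted by a pooled CRISPR library, with 10 guide RNAs each, or 100 of 17820 guides. In such a screen each guide directs the nuclease Cas9 to its gene, and counting guides in the DNA of the culture tells how common the cells with each guide are. The data are 1 library of transduced ES cells at each of days 5, 8 and 12 and 2 libraries of the plasmid pool from which the virus was made. All 5 have Ainv15(iNgn2 Tubb3::GFP) as their genotype, the plasmid libraries too although their titles name a Maxiprep. They also share the treatment label "No treatment", and the protocols add that the cells were grown in ES cell medium with Zeocin, the selection agent. Days are counted from transduction in the titles, whereas for the first time point the protocol counts from selection. Guide counts carry no expression values, so the ES cell label was not checked against marker genes.

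Naive pluripotency is the state of ES cells that resemble the epiblast before implantation. The cytokine LIF activates STAT3, which enters the nucleus and switches on further factors of the network, among them Klf4 and Tfcp2l1. The KLF factors bind many of the same sites and can stand in for one another in part. Esrrb lies downstream of WNT signalling through relief of the repressor Tcf7l1, and the nuclear receptor genes Nr5a2 and Nr0b1 and the T-box gene Tbx3 act on the core factors Pou5f1 and Nanog. Zfp42, also called Rex1, is widely used as a marker of the naive state.

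The lowest and highest guides of each gene at day 12 mark its spread and are shown first, with those discussed as overlapping pairs. Guides are numbered 1 to 10 in the order of the tables, and the gene positions are those of RefSeq on GRCm38.p6, the assembly behind mm10. Each sequence is given 5′ to 3′ as deposited, and capitals mark bases that also lie in another guide to the same gene, on either strand, where the end of 1 guide and the end of the other overlap without a mismatch by at least 9 bases. A run shared by 2 guides whose bases beside it differ is not marked, as in guides 1 and 4 to Nr0b1. Cut sites on the genome were not analysed here.

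For Nr0b1 (chromosome X, 86191775 to 86195947), the 3 lowest guides, the highest, and the pair with 0 reads in every library were these.
Nr0b1 guide 4: AATACATTGagggtcttcag
Nr0b1 guide 1: cagggtcttcaacaggccag
Nr0b1 guide 2: cacactcaaggatccacagg
Nr0b1 guide 3: ctgtaccgcagctatgtgtg
Nr0b1 guide 5: GCAGTGCGTGAAATACATTG
Nr0b1 guide 10: CAATGTATTTCACGCACTGC

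For Klf2 (chromosome 8, 72319062 to 72321654), the 3 lowest guides overlap each other, and the fourth line is the highest.
Klf2 guide 1: ACTTGCAGCTACACCaactg
Klf2 guide 2: GTAGCTGCAAGTATGTGtgg
Klf2 guide 3: GGTGTAGCTGCAAGTATGTG
Klf2 guide 7: TTCGCCAGCCCGTGCGAGCG

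For Stat3 (chromosome 11, 100886806 to 100939594), the lowest and highest guides are followed by 4 that overlap another guide.
Stat3 guide 1: TCGGGGTAGAGGTAGACAAG
Stat3 guide 6: gtttgacatggatctgacct
Stat3 guide 5: CCTCTACCCCGACATTCCCA
Stat3 guide 7: GGTAGACAAGtggagacacc
Stat3 guide 3: gcaTCAATGAATCTAAAGTG
Stat3 guide 8: TCAATGAATCTAAAGTGcgg

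The lowest and then the highest guide of the other genes follow, with the partner of an overlapping pair for Klf5 (chromosome 14, 99298691 to 99313412) and Klf4 (chromosome 4, 55527137 to 55532475) and a pair with 0 reads for Tbx3 (chromosome 5, 119670534 to 119684724). The others are Tfcp2l1 (chromosome 1, 118627923 to 118685168), Zfp42 (chromosome 8, 43295067 to 43307009), Esrrb (chromosome 12, 86361117 to 86521628) and Nr5a2 (chromosome 1, 136842562 to 136960448).
Klf5 guide 9: cagaaggagtaacccggatc
Klf5 guide 4: TGGCCCGCGACTGCCCTCGg
Klf5 guide 7: CGAGGGCAGTCGCGGGCCAg
Tfcp2l1 guide 6: ggcggtcatggaaaacgaca
Tfcp2l1 guide 9: aaatccggctgctggagaat
Klf4 guide 2: cctTACCACTGTGACTGGGA
Klf4 guide 5: acccaCACTTGTGACTATGC
Klf4 guide 10: ccgTCCCAGTCACAGTGGTA
Zfp42 guide 9: cctCAGCTTCTTCTTGCACC
Zfp42 guide 10: actctgcacacacgtgccgc
Esrrb guide 3: caacatcgagtacaactgcc
Esrrb guide 2: ctgtactagtggtatcatgg
Nr5a2 guide 1: aaccgtgtagtccagcaggg
Nr5a2 guide 9: actcccGCTGATCGAACTGA
Tbx3 guide 10: tcacaagcggggtacagaga
Tbx3 guide 6: tttgggaccagtttcacaag
Tbx3 guide 3: TCCCAAGCGATCACGCAACG
Tbx3 guide 7: CGTTGCGTGATCGCTTGGGA

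Of the 100 guides, 84 had at least 30 reads in both plasmid libraries and were analysed, 12 had fewer, and 4 had no read in any library. The 12 were guides 4, 5 and 6 to Klf2, 4, 6 and 9 to Klf4, 8 to Nr0b1, 3 and 7 to Nr5a2, 2 and 9 to Stat3 and 4 to Zfp42. The libraries held 3541896 and 1350234 reads (plasmid) and 1063071, 1082489 and 1008492 reads at days 5, 8 and 12. The 100 guides took 19600, 7802, 5622, 4796 and 4313 of these. A guide's change is the log2 ratio of its scaled CPM (counts relative to the library's total) at a day, plus a pseudocount of 1, to the plasmid mean plus 1, and a gene's change is the median over its kept guides. Each day is a single library, so these changes have no replicate check, and the SD beside a median is the spread over guides, which share a target and are not replicates of a day. The 893 kept non-targeting guides ended above the typical guide, with medians of 0.41, 0.54 and 0.58 at days 5, 8 and 12. A level near 0 is therefore below that of the control guides.

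The 10 genes spread from loss to gain. At day 12 their medians ran in the order Nr0b1 (-2.09), Klf2 (-2.09), Stat3 (-1.28), Klf5 (-1.15), Tfcp2l1 (-0.84), Klf4 (-0.69), Zfp42 (-0.27), Esrrb (-0.16), Nr5a2 (0.43) and Tbx3 (0.77). The median over the 10 genes was -0.77, against 0.0090 over all 1682 genes. The median change was -1 or lower for 4 of the 10, against 15.8% of all genes, and 1 or higher for 0 of the 10, against 1.19% of all genes. The widest gap between neighbours in the order, 0.81 between Klf2 and Stat3, was 0.55 of their pooled SD over guides, and the widest relative to that SD, 0.59 between Esrrb and Nr5a2, was 0.78 of it. No neighbours therefore differed by more than the spread of their guides. At the ends of the order, every kept guide to the 6 lowest genes lay below every kept guide to Tbx3, whose lowest was at 0.29. The highest of the former was at 0.13 (Stat3 guide 6). The genes were ordered by these same values of a single library, so this is a description. With at least 100 reads required in both plasmid libraries, 20 guides to 9 of the genes were left. Stat3 then ended at -4.95 and Zfp42 at 0.997. These are the values of guide 1 to Stat3 alone, its lowest, and guide 10 to Zfp42 alone, its highest. Klf4 (guides 3 and 8) and Klf2 (guides 2 and 7) ended at -1.39 and Esrrb (guides 7 and 9) at 0.82. The places of these genes in the order therefore depend on which guides pass that filter.

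**Figure D1:**
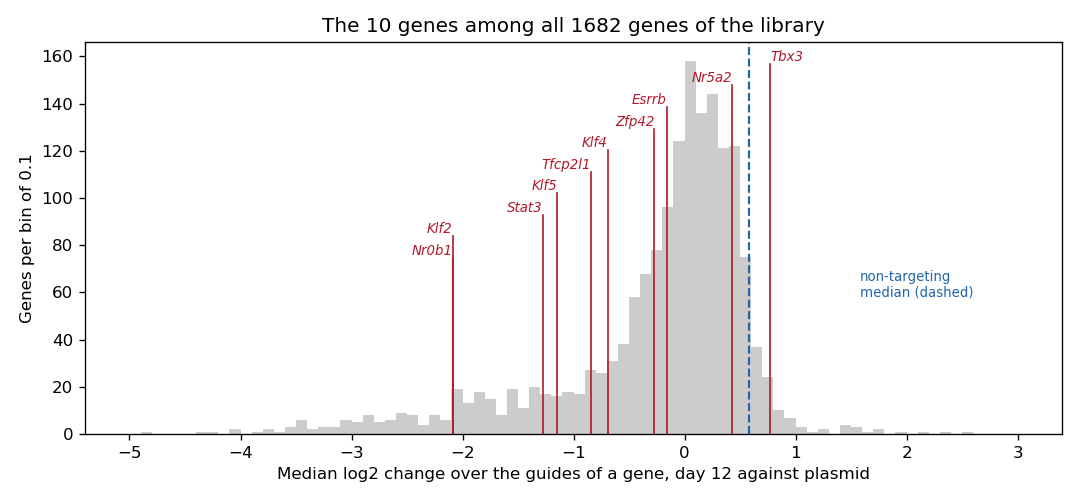
Histogram of the median log2 change over guides at day 12 against plasmid (x axis, bins of 0.1) for all 1682 genes (y axis, genes per bin), with the 10 genes as red lines whose height has no meaning, and the non-targeting median of 0.58 as a dashed line. Nr0b1 and Klf2 stand together at -2.09, and Tbx3, at 0.77, is the single member to the right of the non-targeting median.

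A slope over days was fitted to the reads summed over the kept guides of each gene, with both plasmid libraries at day 0 and edgeR's quasi-likelihood test on all 5 libraries. It fell for 6 of the 10 genes, Nr0b1, Klf2, Klf5, Stat3, Tfcp2l1 and Klf4, where it fell for 25.2% of all genes. It rose for 2, Tbx3 and Esrrb, where it rose for 34.7% of all genes. Zfp42 and Nr5a2 did not pass. The fit rests on 3 residual degrees of freedom and calls 424 genes lower and 584 higher out of 1682. A call here therefore says little by itself, and calls in either direction are relative to the typical guide. The labels do not say whether the days are samples of 1 culture or whether the plasmid replicates are separate preparations, so the p-values measure the spread of these libraries about a line. Scaled to the non-targeting guides instead, 7 of the 10 fell and 0 rose, where 72.2% of all genes fell and 1.07% rose.

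Guide by guide, 35 of the 84 kept guides fell in the same test, or 41.7%, against 24% of all guides to genes, and 13 rose, or 15.5%, against 16.1%. Among the 893 non-targeting guides 43 fell and 406 rose. At day 12, 31 of the 84 lay under the middle 95% of the non-targeting guides, which ran from -1.10 to 1.74, or 36.9% against 19.9% of all guides to genes. Just 1 of the 84, to Tbx3, lay above that range, against 1.05%. The 31 came from 8 genes: 6 of 7 guides to Nr0b1, 5 of 7 to Klf2, 5 of 8 to Stat3, 5 of 10 to Klf5, 4 of 10 to Tfcp2l1, 3 of 9 to Zfp42, 2 of 7 to Klf4 and 1 of 10 to Esrrb.

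**Figure D2:**
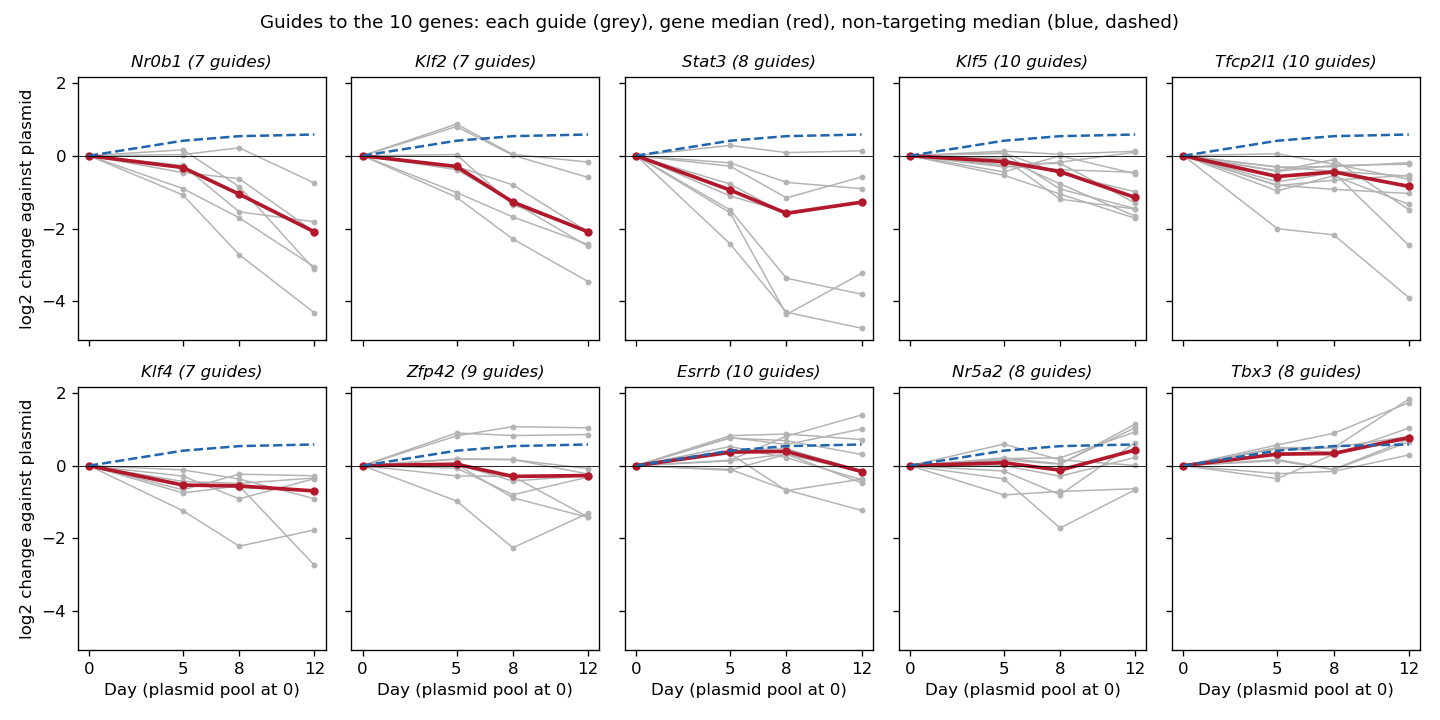
Log2 change against plasmid (y axis) over days (x axis, plasmid at 0) for every kept guide (grey), the gene median (red) and the non-targeting median (blue, dashed), with 1 panel per gene in order of the day 12 median. All 7 guides to Nr0b1 and to Klf2 end below 0, while all 8 guides to Tbx3 end above it.

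Nr0b1 codes for DAX1, an orphan member of the nuclear receptor family without the usual DNA-binding domain, which acts mostly as a corepressor. Its kept guides summed to 1999 and 912 reads in the plasmid libraries and 474, 325 and 119 reads at days 5, 8 and 12. The gene fell in the trend (edgeR adjusted p = 0.000287), with a slope of -0.16 log2 units per day. Its median went on down through the course: -0.32 at day 5, -1.06 at day 8 and -2.09 at day 12 (SD 1.14, 7 of 7 guides below 0). Guide 4 had 213 and 84 reads in the plasmid libraries, then 30, 9 and 2, a change of -4.31. Guide 2 had 522 and 229 reads, then 89, 51 and 17. Guide 1 was still at 0.16 at day 5 and reached -3.12 at day 12. The mildest, guide 3, had 186 and 77 reads, then 59, 68 and 30, and did not pass the guide test (adjusted p = 0.387). The single guide to Nr0b1 left out for low reads, guide 8, had 48 and 25 reads, then 14, 13 and 21. The libraries differ in depth. As a share of its library, guide 8 was higher at day 12 than in either plasmid library, unlike the 7 kept guides.

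Klf2, Klf4 and Klf5 code for Krüppel-like zinc-finger factors that bind GC-rich promoter and enhancer sites. Guides to Klf2 summed to 1872 and 724 plasmid reads and 605, 331 and 190 reads at days 5, 8 and 12, and the gene fell (slope -0.11 per day, edgeR adjusted p = 0.00477). The median was -0.30, -1.27 and -2.09 at the 3 days (SD 1.14 at day 12, 7 of 7 guides below 0). Its guides did not move alike. Guide 1 had 154 and 63 plasmid reads, then 21, 9 and 3, a change of -3.45, and guides 2 and 3, which overlap it, ended at -2.49 and -2.43. Guide 7, by contrast, had 427 and 174 plasmid reads, then 241, 136 and 103, and ended at -0.17. That guide took 54.2% of the reads on Klf2 at day 12, against 22.8% and 24.0% in the plasmid libraries. The 95% Wilson interval, 47.1 to 61.1, covers counting error only. Guide 7 was picked for having the most reads on Klf2 at day 12, which favours a high share there. Of the guides picked so for each gene, that of Tbx3 held 21.9% at day 12, against 25.9% and 26.4% in the plasmid libraries. That of Klf4 held 29.6%, against 27.2% and 33.4%, and the others rose above both plasmid shares. Guides 7 and 8 stood above the plasmid pool at day 5, at 0.87 and 0.80, yet all 7 kept guides were lower at day 12 than at day 5. Guides 7 and 8 have 15 and 14 G or C bases, guides 1 to 3 have 10, and guide 10, which ended at -2.06, has 17. Whether G and C content bears on the difference between these guides was not tested. Guides 4, 5 and 6 were left out for low reads. Guide 4 had 40 and 18 plasmid reads, then 14, 12 and 1. Guide 5 had 65 and 18, then 9, 12 and 4, and guide 6 had 45 and 23, then 7, 14 and 7. Plasmid library 1 is much the deepest, so these reads are not to scale. As a share of its library each was lower at day 12 than in either plasmid library.

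Klf5 lost less and more evenly. Its summed reads were 2292 and 906 in the plasmid libraries and 625, 503 and 361 at the 3 days, and it fell (slope -0.062 per day, edgeR adjusted p = 0.000486). The median was -0.16, -0.44 and -1.15 at days 5, 8 and 12 (SD 0.70 at day 12), the second smallest spread of the 10 genes after Tbx3. Its lowest guide, guide 9, had 239 and 96 reads, then 50, 35 and 19. Of its 10 guides 8 ended below 0. The other 2, guides 4 and 10, kept 53 and 33 reads at day 12.

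By its median, Klf4 was low from the first time point and moved little after it. Its summed reads went from 70.7% of the scaled plasmid level at day 5 to 54.6% at day 12. Summed reads were 1395 and 599 in the plasmid libraries and 312, 273 and 213 at the 3 days, with a fall in the trend (slope -0.077 per day, edgeR adjusted p = 0.00200). Medians were -0.53, -0.56 and -0.69 (SD 0.92 at day 12, 7 of 7 guides below 0). Guide 8, with 296 and 120 plasmid reads and 38, 19 and 23 reads after, was at -1.24 already at day 5. Guide 2, the lowest at day 12 (-2.73), rests on 2 reads, after 59 and 31 in the plasmid libraries.

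Stat3, the transcription factor that carries the LIF signal, was the lowest of the 10 at day 5. Its kept guides summed to 1647 and 569 plasmid reads and 242, 140 and 136 reads at days 5, 8 and 12. The sum fell (slope -0.15 per day, edgeR adjusted p = 0.000633), and 51.7%, 29.7% and 32.9% of the scaled plasmid level was left at the 3 days. Medians were -0.94, -1.58 and -1.28, so the gene was no lower at day 12 than at day 8. The spread over its guides was the widest of the 10, with an SD of 1.73. Guide 1 had 413 and 142 plasmid reads, then 21, 5 and 3, a change of -4.74 and the lowest of all 84 guides. Guide 3 had 211 and 75, then 21, 5 and 3, and guide 5 had 123 and 57, then 13, 1 and 3. At the other end guide 6 had 151 and 45, then 49, 43 and 39, and ended at 0.13. That guide held 28.7% of the reads on Stat3 at day 12 (95% Wilson interval 21.7 to 36.8), against 9.17% and 7.91% in the plasmid libraries. It was picked for having the most reads on Stat3 at day 12, which the interval does not allow for. Of the guides left out for low reads, guide 2 had 79 and 29 plasmid reads, then 7, 0 and 2. Guide 9 had 67 and 28, then 28, 16 and 12.

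Tfcp2l1, a CP2-family factor gene that STAT3 activates, resembled Klf4 in its median and held 1 deep exception. Summed reads were 2653 and 983 in the plasmid libraries and 495, 519 and 367 after, and the gene fell (slope -0.077 per day, edgeR adjusted p = 0.000433). Its medians were -0.57, -0.45 and -0.84 (SD 1.16 at day 12), and 10 of 10 guides ended below 0. The deep exception was guide 6, with 397 and 144 plasmid reads and then 28, 25 and 6, which stood at -2.00 at day 5 and -3.90 at day 12. The next lowest, guide 3, ended at -2.46 and the highest, guide 9, at -0.19.

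Esrrb, which codes for an orphan nuclear receptor, showed no loss in its sum. Summed reads were 1996 and 832 in the plasmid libraries and 918, 910 and 741 at the 3 days. The summed slope rose by the test (0.044 per day, edgeR adjusted p = 0.0241) while the day 12 median lay below 0, and scaled to non-targeting guides the slope turned to -0.016. The call was lost without plasmid library 1 (edgeR adjusted p = 0.135) and without plasmid library 2 (0.0860), and over the cell libraries alone the slope was -0.017. Medians were 0.37, 0.39 and -0.16 (SD 0.79 at day 12), with 6 of 10 guides below 0 at the end. Guide 3 went lowest, with 68 and 32 plasmid reads, then 21, 14 and 8. Guide 2 went highest, with 119 and 49, then 41, 66 and 87. Of its 10 guides 8 were lower at day 12 than at day 5.

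Zfp42, the zinc-finger gene of REX1, did not pass in the trend (slope 0.020 per day, edgeR adjusted p = 0.178). Its direction depended on the setting: scaled to the non-targeting guides it fell (-0.039, edgeR adjusted p = 0.0172). It passed upward without the day 12 library (edgeR adjusted p = 0.0181) and with at least 100 plasmid reads (0.00430). With that read minimum the gene was read from guide 10 alone. Its summed reads were 1419 and 608 in the plasmid libraries and 570, 543 and 450 after, and its medians 0.040, -0.29 and -0.27 (SD 0.91 at day 12). The 9 guides divided: guides 3 and 10 ended at 0.86 and 1.04 and guides 2, 8 and 9 at -1.41, -1.31 and -1.42. Guide 10 alone had 387 and 171 plasmid reads and 220, 265 and 227 after. It took 50.4% of the gene's reads at day 12 (95% Wilson interval 45.8 to 55.0), against 27.3% and 28.1% in the plasmid libraries. Guide 10 too was picked for its reads at day 12, which the interval does not allow for. Guides 3 and 10 have 15 and 13 G or C bases, the most among the 9, and whether this bears on their values was not tested. Guide 4, left out for low reads, had 50 and 26 plasmid reads and then 8, 0 and 0.

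Nr5a2, which codes for the nuclear receptor LRH-1, and Tbx3, which codes for a T-box repressor, were the members with medians above 0 at day 12. Nr5a2 did not pass in the trend (slope 0.029 per day, edgeR adjusted p = 0.160), with summed reads of 1490 and 558 in the plasmid libraries and 459, 379 and 558 after. Its medians were 0.081, -0.12 and 0.43 (SD 0.72 at day 12). Guide 9 was the highest, with 96 and 62 plasmid reads, then 43, 40 and 76, and guide 1 the lowest, with 181 and 70, then 42, 16 and 30. Tbx3 rose relative to the typical guide (slope 0.066 per day, edgeR adjusted p = 0.00241), with 2117 and 838 plasmid reads and 753, 738 and 1069 after. Medians were 0.32, 0.34 and 0.77 (SD 0.54 at day 12), with 8 of 8 guides above 0. Against the non-targeting median of 0.58 its excess was 0.19, and scaled to those guides its slope was 0.0075 with an edgeR adjusted p of 0.697. Guide 6 had 170 and 81 plasmid reads, then 79, 81 and 181, and was the single member guide above the non-targeting range.

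By their medians, with 1 library per time point, the genes differed in when the change took place. Whether this holds beyond these libraries was not tested. At day 5 the median was -1 or lower for 0 of the 10 genes, against 6.3% of all genes, and at day 8 for 3 (Nr0b1, Klf2 and Stat3), against 12.1%. Set directly against day 5, the day 12 medians of Nr0b1 (-1.74), Klf2 (-1.79) and Klf5 (-1.06) were at -1 or lower, or 3 of 10, against 7.02% of all genes. Those of Stat3 (-0.59), Esrrb (-0.51), Zfp42 (-0.31), Tfcp2l1 (-0.31) and Klf4 (-0.16) were nearer to 0, and those of Nr5a2 (0.48) and Tbx3 (0.54) above it. A slope fitted to days 5, 8 and 12 alone fell for the same 3 genes, Nr0b1 (-0.25 per day), Klf2 (-0.21) and Klf5 (-0.085), where it fell for 11.8% of all genes. It rose for Tbx3 (0.11) and Nr5a2 (0.076), where it rose for 19% of all genes. Stat3, Tfcp2l1 and Klf4 did not pass there, with edgeR adjusted p of 0.176, 0.176 and 0.309. Whether these 3 differ in slope from Nr0b1, Klf2 and Klf5 was not tested. The fit to days 5, 8 and 12 has 1 library per day and no replicate. It leaves fewer residual degrees of freedom than the 3 of the full fit, so its calls say less still. It also draws on the same libraries as the day 12 medians against day 5, so the match in genes is no separate check.

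Over the 3 time points the genes whose medians were nearest to those of Nr0b1 were Klf2, with a root mean square difference of 0.13, Ankrd49 (0.13) and Trp53bp1 (0.14). They ended at -2.09, -1.88 and -1.97.

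Many guides to 1 gene in this library overlap each other. Among the 100 guides 44 overlap another guide to the same gene, in 39 pairs whose computed cuts lie 3 to 25 bases apart, and 27 of the pairs have both guides kept. Cas9 of Streptococcus pyogenes needs the bases NGG after the guide and cuts close to them. In 29 places an overlapping partner shows the 3 bases after a guide, and all 29 read NGG. The 27 pairs differed by a median of 0.45 in their day 12 change, against 1.01 for the 291 pairs of kept guides to the same gene with no overlap. Over all genes the medians were 0.69 for 3582 overlapping pairs and 0.74 for 52333 others. Pairs share guides and genes, so these are descriptions.

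Near-identical sites did not always give like values. Klf2 guides 2 and 3, shifted by 3 bases, ended at -2.49 and -2.43. Stat3 guides 3 and 8 are shifted by 3 bases as well and ended at -3.80 and -1.26, with 3 and 27 reads at day 12. Stat3 guides 1 and 7, with computed cuts 10 bases apart, ended at -4.74 and -0.58, while guide 5, which overlaps guide 1 on the other strand, ended at -3.23. Klf4 guides 2 and 10 cut 11 bases apart and ended at -2.73 and -0.36, and Klf5 guides 4 and 7, which share 19 bases on opposite strands, ended at 0.12 and -1.46. Of the 27 pairs 9 differed by more than 1, or 33.3%, against 34.6% over all genes.

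**Figure D3:**
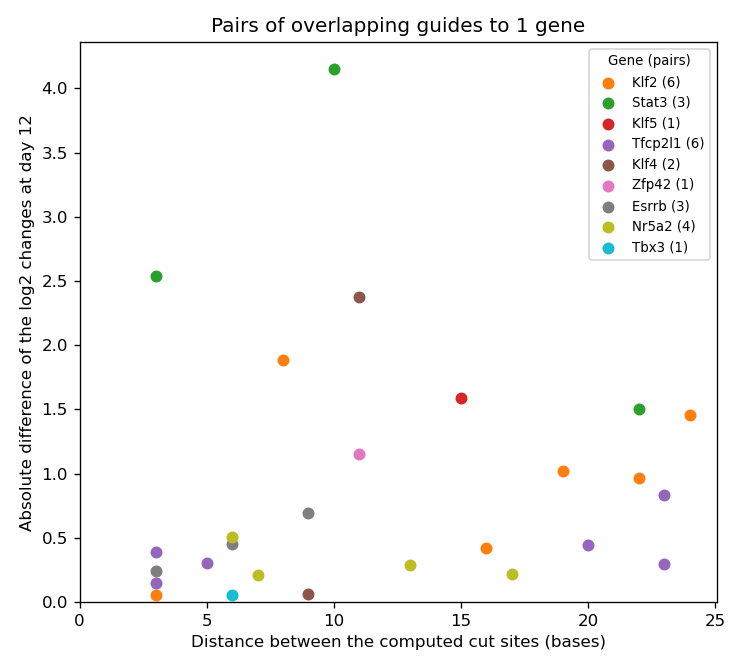
Absolute difference of the day 12 log2 changes (y axis) against the distance between the computed cut sites in bases (x axis) for the 27 pairs of overlapping kept guides, coloured by gene. The largest difference, 4.15, belongs to Stat3 guides 1 and 7, and all pairs of Nr5a2, Tbx3, Tfcp2l1 and Esrrb stay under 1.

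The G and C content of a guide moved with its value in this screen: across the non-targeting guides the day 12 change had a slope of 0.12 log2 units per G or C base. The kept guides of the 10 genes averaged 9.6 (Tbx3) to 12.5 (Klf5) such bases. After correction by that slope the day 12 medians were -2.34 for Nr0b1, -2.33 for Klf2, -1.17 for Klf5, -1.12 for Stat3, -0.93 for Tfcp2l1, -0.59 for Klf4, -0.25 for Zfp42, -0.22 for Esrrb, 0.35 for Nr5a2 and 0.95 for Tbx3. Klf5 and Stat3 changed places in the order and no sign turned. Across the non-targeting guides the slope was already 0.13 at day 5, so it did not grow over the days. The day 5 values given above are not corrected for it.

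The nearest relatives of the 10 genes, such as the other KLF and T-box genes, ended close to the typical gene. Of 38 such paralogs in the library 0 had a median of -1 or lower at day 12, and their list median was 0.091. In the trend 2 fell, among them Klf8 (-0.38), where 25.2% of all genes fell. A further 14 rose, a share near the 34.7% of all genes: Klf15 (0.65), Tbx5 (0.63), Klf14 (0.60), Tbx21 (0.46), Klf1 (0.42), Tbx19 (0.34), Tbx18 (0.32), Klf7 (0.23), Tbx1 (0.23), Klf11 (0.19), Tbx4 (0.13), Klf13 (0.11), Nr0b2 (0.070) and Tbx2 (0.055), given with their day 12 medians. The lowest, the zinc-finger gene Yy1 (-0.87), did not pass. Scaled to the non-targeting guides, 26 of the 38 fell and 0 rose, where 72.2% of all genes fell and 1.07% rose. Among the paralogs' 329 kept guides 8.51% lay under the non-targeting range, against 19.9% of all guides to genes and 36.9% for the 10 genes.

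Of 24 partners of the network in the library 8 fell and 9 rose, with a list median of 0.051. Both counts are near the shares over all genes, 25.2% and 34.7%. Those that fell were the core factor genes Pou5f1 (-2.08), Nanog (-1.76) and Sox2 (-0.35), the ETS gene Etv5 (-1.68), the polycomb cofactor gene Jarid2 (-1.66), and Foxd3 (-0.82), Mycn (-0.25) and Smad4 (-0.21). Those that rose were the coactivator gene Ncoa3 (2.00), Prdm14 (1.58), Sall4 (1.28), Tfap2c (1.06), the repressor gene Tcf7l1 (0.47), Id3 (0.34), Gbx2 (0.26), Otx2 (0.087) and Utf1 (0.069). Scaled to the non-targeting guides, 16 of the 24 fell and 0 rose, again near the 72.2% and 1.07% of all genes. Among their 205 kept guides 21.5% lay under the non-targeting range, against 19.9% of all guides to genes. Above it lay 6.34%, against 1.05%. The day 12 median was 1 or higher for 4 of the 24, against 1.19% of all genes, and -1 or lower for 4, against 15.8%.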

How the data were processed

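Guide RNA abundance was measured by sequencing in 2 plasmid and 3 cell libraries. Each deposited file lists unnormalized counts, 1 whole number for each guide, per the file headers. The submitters' processing notes name cutadapt, Bowtie, featureCounts and mm10. How mismatches and repeated matches were treated is not given in the sources used here. A guide needed 30 reads or more in both plasmid libraries. Counts were scaled with TMM factors (edgeR 4.0.16, R 4.3.3). Slopes over days were tested with edgeR's quasi-likelihood test, on reads summed per gene over all 1682 genes and per guide over 15336 guides. Benjamini-Hochberg adjustment and a threshold of 0.05 were used. The fits were also run on counts simulated with straight slopes, which cannot check curved courses or an offset between plasmid and cells. Reads are not independent molecules, and counts cover sequencing depth alone. Alternatives covered scaling, the read filter, pseudocount, GC content, time axis, DESeq2 1.42.0 and left-out libraries. The members, lists and rules were chosen with earlier results of these data known. All members were named, and from the 2 lists the called genes and the lowest and highest, except 1 gene that is not reported here. Single guides and overlapping pairs beyond the lowest and highest of a gene were chosen after their values were seen. Gene symbols and positions came from RefSeq (GRCm38.p6); all 10 members matched by symbol. Placing guides in the proteins was planned and not done, since protein sequences were not used here.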

Additional observations from a re-analysis of the deposited data

Results flagged for a closer look

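For 2 of the 10 genes the median change against plasmid lay on opposite sides of 0 at days 5 and 12. Esrrb had medians of -0.16 at day 12 and 0.372 at day 5, and Zfp42 of -0.271 at day 12 and 0.0402 at day 5. The median of Nr5a2 was above 0 at days 5 (0.081) and 12 (0.43) and below it at day 8 (-0.12). Each time point is 1 library, and the differences between time points were not tested for these genes.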

How the results depend on the processing

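The 6 genes that fell kept a slope below 0 under all 12 alternatives run, and Nr0b1, Klf2 and Klf5 passed in all 12. Stat3, Tfcp2l1 and Klf4 passed in 11, all but the fit to the cell libraries alone. In that fit 5 of the 10 genes and 16 of the 84 guides passed, and the slopes of Esrrb (-0.017) and Zfp42 (-0.021) turned. Scaling to the non-targeting guides lowered the median of all genes by 0.65. It turned the slopes of Esrrb (-0.016), Nr5a2 (-0.029) and Zfp42 (-0.039), of which Zfp42 then passed (edgeR adjusted p = 0.0172), and took the median of the 10 genes to -1.42 at day 12 and -0.63 against day 5. Without the day 12 library the slope of Nr5a2 turned to -0.019 and 31 guides passed. With at least 100 plasmid reads 20 guides of 9 genes were left; 15 of them passed, 8 lay under the non-targeting range, and the median against day 5 was -0.63. Under that filter the day 12 values of Esrrb (0.82) and Zfp42 (0.997) turned and those of Stat3 (-4.95) and Klf4 (-1.39) moved furthest down. Zfp42 and Stat3 were then read from guide 10 and guide 1 alone. The day 12 median of Esrrb also turned with means over guides (0.064), and that of Nr5a2 (-0.23) with the non-targeting scaling. Without a read minimum the day 12 median of the 10 genes was -0.65, and with means over guides it was -0.97, and -0.50 against day 5. With the 1st to 99th percentile as the range 20 guides lay under it. Leaving out 1 plasmid library gave 7 of 10 genes called either time, 28 to 32 guides called, 30 guides under the range, and a median of -0.78 to -0.66; Esrrb lost its call both times (edgeR adjusted p of 0.0860 without plasmid library 2 and 0.135 without library 1). Zfp42 passed upward with at least 100 reads (edgeR adjusted p = 0.00430, guide 10 alone) and without day 12 (0.0181), and Nr5a2 without day 8 (0.0113). No paired analysis was possible because replicate numbers are given for the plasmid libraries alone. Depth limits the lowest guides, of which the 7 furthest down rest on 2 to 6 reads at day 12.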

Other observations

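The 4 member guides with no reads in any library are 2 pairs of exact reverse complements, guides 5 and 10 to Nr0b1 and guides 3 and 7 to Tbx3. Both guides of such a pair match the same 20 bases on opposite strands. Across the whole library 220 guides have an exact reverse complement among the other guides, and 220 of these 220 have 0 reads in all 5 libraries. A further 2 guides share 1 sequence and also have 0 reads. Of the 17598 guides with neither, 1 has 0 reads. Nr0b1 and Tbx3 are therefore read from at most 8 of their 10 guides in these tables. Whether the reads of such pairs were lost in matching or the guides were missing from the pool was not tested.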
